A study of Mus musculus with 2 samples.

Results

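Integrins are cell surface receptors made of 1 α and 1 β subunit, and their ligands *Icam1* and *Vcam1* are adhesion molecules of the immunoglobulin family. The 10 genes described here are these 2 ligands and 8 integrin subunits, chosen by name from 20655 genes that could be named on the arrays. They were read by 17 probes, and all 17 were well above background on both arrays. The samples were RAW264.7 cells, a macrophage-like line from a tumor that Abelson murine leukemia virus had induced in an adult male BALB/c mouse. One culture was given vehicle and the other IR-61, a near-infrared heptamethine cyanine dye that gathers in mitochondria, both for 24 h in medium with serum. The dose was 10 μM according to the figure legend of the study, and no further stimulus is named for either culture. RNA of each culture was read on 1 single-colour Agilent array, so the spread between cultures is unknown, and differences are given by size, without a p-value. The values describe a single transformed line, which limits it as a model of macrophages in tissue.

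In macrophages, the β2 integrins share the subunit *Itgb2* (CD18), which pairs, among others, with *Itgal* (CD11a), *Itgam* (CD11b) or *Itgax* (CD11c). The pair of *Itgal* and *Itgb2* and that of *Itgam* and *Itgb2* bind Icam1. *Itga4* pairs with *Itgb1* or *Itgb7* and binds Vcam1 and fibronectin, *Itga5* pairs with *Itgb1* and binds fibronectin, and *Itgav* pairs with several β subunits and binds vitronectin, osteopontin and other RGD proteins. β2 subunits carry leukocyte arrest, phagocytosis of complement-coated particles and spreading, and *Icam1* and *Vcam1* are known as genes that inflammatory signals induce.

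Values are given as the background-subtracted signal of a probe, and as the scaled log2 signal, which is the log2 signal minus the 75th percentile of the array. A difference is the scaled log2 signal with IR-61 minus that with vehicle, and a gene is represented by its brightest probe. The 75th percentile was 10.30 for vehicle and 10.79 for IR-61 on the log2 scale, so the IR-61 array was brighter as a whole. Over 16885 genes measured on both arrays the median difference was 0.10, and the quartiles were −0.15 and 0.34. Each member probe was printed once. Its error was therefore taken from other probes printed 10 times, and it covers noise between spots of 1 array only. Less RNA of a gene per cell and fewer cells that express it cannot be told apart in these bulk samples. Of the macrophage lineage markers, 9 of 10 had a named probe, and all 9 were well above background on both arrays. The median difference of these 9 was −0.09. The highest was that of *Adgre1*, a surface marker of mouse macrophages, which was higher with IR-61 by 2.04-fold, followed by *Fcgr1*, higher by 1.99-fold. *Spi1*, which encodes PU.1, had the lowest difference, −0.83. Of 33 markers of other cell types 28 were well above background too, among them *Col1a1*, *Dcn* and *Elane*, while *Cd3g*, *Ncr1*, *Tek*, *Epcam* and *Cdh1* were not. With vehicle, *Col1a1*, *Dcn* and *Elane* had signals of 27147.5, 16543 and 7009. Some of the 28 were dim, such as *S100a9* at 16.5, where the lowest signal well above background was 12.8. Of these 28, *Ms4a1* alone differed by 2-fold or more, at −1.46. The part of these markers in the results below was not tested.

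Among the 10 genes, *Icam1* and *Itgb2* were lower by 2-fold or more in the IR-61-treated cells, and *Itga4* and *Itgal* were higher by 2-fold or more. Over all genes measured on both arrays, 1.39% were lower past this limit and 1.99% higher, against 20% and 20% of the 10 genes. The 10 genes were chosen with earlier results of these data known, so these shares cannot be read as a trait of integrin genes. The remaining 6 genes differed by less than 2-fold. *Itgb1* and *Itga5* were lower by 1.72-fold and 1.82-fold, *Itgam* was higher by 1.57-fold, and *Itgav*, *Vcam1* and *Itgax* differed by between 1.07-fold and 1.26-fold. With a limit of 1.5-fold, 4 of the 10 genes were lower and 3 higher, beside 5.69% and 9.79% of all genes. The median difference of the 10 genes was −0.23, with 6 negative and 4 positive values, so they did not share 1 direction. Among the positive values, that of *Itgax* was 0.10, as was the median of all genes. Without scaling between the arrays this median was 0.26, and *Vcam1* and *Itgav* had positive differences of 0.37 and 0.15. In 6 of the 6 genes with several probes, all probes had the same sign, though some of these differences were within the noise between spots.

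**Figure D1:**
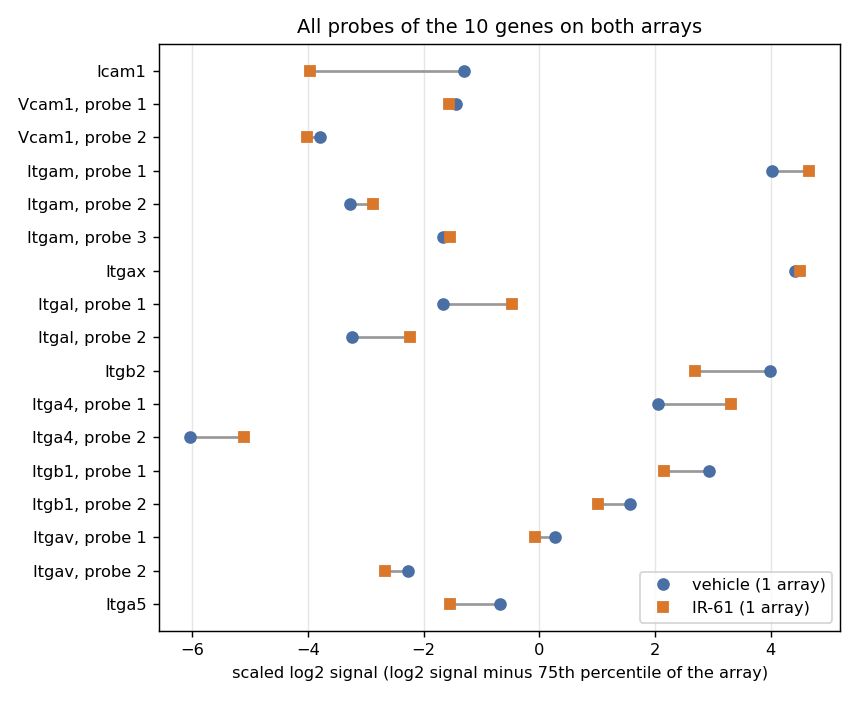
Scaled log2 signal (x axis) of each of the 17 probes of the 10 genes (y axis) on the vehicle array (circles) and the IR-61 array (squares), joined by a line; probe 1 is the brightest probe of a gene. The longest line is that of *Icam1*, from −1.30 to −3.97, and the probes of a gene differ in the same direction. Positions of different probes on the x axis are not comparable as levels.

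Of the ligands, *Icam1* had a signal of 514 with vehicle and of 113 with IR-61. It was dimmer on the IR-61 array even though that array was brighter as a whole. Its scaled log2 signal was −1.30 and −3.97, a difference of −2.67 and a 6.36-fold lower value. This was the largest difference in size among the 10 genes, and *Icam1* took rank 14 of the 16885 measured genes counted from the lowest difference. The SD of this difference expected from the spots was 0.23. *Icam1* was read by 1 probe with 1 spot, so no second probe could be set beside it. With normexp background correction its difference was −2.05, the weakest of the settings, and it was lower by 2-fold or more under every setting tried.

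The promoter of *Icam1* is shown because the gene had the lowest difference, and those of *Itga4* and *Itgam* because these had the highest differences among the genes with a promoter entry. Promoters of 7 of the 10 genes were matched by symbol in RefSeq (GRCm38.p6), with none for *Vcam1*, *Itgal* and *Itgb2*. The 250 bases before the transcription start are given 5′ to 3′ on the plus strand, at chr9:21015690-21015939, chr2:79255176-79255425 and chr7:128062390-128062639, and capitals mark matches to the motifs named below.
Icam1: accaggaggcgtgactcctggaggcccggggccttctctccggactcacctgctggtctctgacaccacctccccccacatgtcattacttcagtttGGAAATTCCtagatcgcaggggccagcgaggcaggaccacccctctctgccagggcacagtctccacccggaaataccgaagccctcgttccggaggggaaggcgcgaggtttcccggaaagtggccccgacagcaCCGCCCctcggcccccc
Itga4: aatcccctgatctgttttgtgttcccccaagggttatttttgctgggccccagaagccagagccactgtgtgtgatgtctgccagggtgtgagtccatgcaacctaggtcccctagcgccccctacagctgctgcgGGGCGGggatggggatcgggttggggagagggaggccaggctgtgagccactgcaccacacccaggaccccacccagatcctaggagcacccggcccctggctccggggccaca
Itgam: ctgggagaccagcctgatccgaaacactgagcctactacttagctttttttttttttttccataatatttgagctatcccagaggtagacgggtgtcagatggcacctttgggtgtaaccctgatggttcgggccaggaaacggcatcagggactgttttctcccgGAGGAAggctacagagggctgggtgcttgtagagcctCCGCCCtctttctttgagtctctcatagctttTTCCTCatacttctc
4 motifs were searched on both strands, and no matches overlap in these 3 sequences. They were GGAAANTCC, of the NF-κB type, TGANTCA, of the AP-1 type, GAGGAA, of the type bound by the myeloid factor PU.1, and GGGCGG, of the SP1 type. The NF-κB type motif had 1 match in the *Icam1* promoter, at bases −153 to −145 before the start, and none in the other 6. It is held by 1.07% of 32851 promoters over the same 250 bases. The PU.1 type motif had 2 matches in the *Itgam* promoter and matches in those of *Itgb1*, *Itgav* and *Itga5*, and 23.3% of all promoters hold it. The AP-1 type motif (6.75% of all promoters) matched in that of *Itgax* alone. The SP1 type motif matched once in each of the promoters shown and also in those of *Itgb1* and *Itga5*, and 32.7% of all promoters hold it. A match is a run of letters and was not tested as a binding site.

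*Vcam1*, the ligand of α4β1, had a signal of 467 with vehicle and of 604 with IR-61 by its brightest probe. After scaling, the values were −1.43 and −1.55, a difference of −0.12 with an SD expected from the spots of 0.23. The second probe read 90.8 and 110, a difference of −0.22 with an SD of 0.23. Both differences were within this SD, so that a change of *Vcam1* could not be told from noise between spots. The difference of *Vcam1* and that of *Icam1* were thus far apart, at −0.12 and −2.67, although both genes encode integrin ligands.

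Of the β2 integrin subunits, the shared β subunit *Itgb2* was lower with IR-61, *Itgal* and *Itgam* were higher, and *Itgax* was at the median of all genes. *Itgb2* had a signal of 19978 with vehicle and of 11454 with IR-61. Its scaled log2 signal was 3.98 and 2.69, a difference of −1.29 and a 2.45-fold lower value, against an SD of 0.09 from the spots. It took rank 118 from the lowest difference and was read by 1 probe. Without scaling the difference was −0.80, under 2-fold. *Itgal*, the α subunit of LFA-1, had a signal of 400.1 with vehicle and of 1278 with IR-61. Its scaled values were −1.66 and −0.47, a difference of 1.19 and a 2.28-fold higher value, with an SD of 0.19 and rank 170 from the highest difference. A second *Itgal* probe read 134 and 375, a difference of 0.99 with an SD of 0.23. Both probes of *Itgal* were thus higher with IR-61, the second by 1.99-fold.

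*Itgam*, the α subunit of complement receptor 3, was read by 3 probes. The brightest had a signal of 20486 with vehicle and of 45218 with IR-61, with scaled values of 4.02 and 4.67 and a difference of 0.65 (SD 0.09). The other probes read 131 and 243, and 397 and 605, with differences of 0.41 and 0.12 (SD 0.23 each). All 3 were positive, but the size depended on the probe, and the mean over the 3 probes was 0.39. The difference of 0.12 was within its SD and close to the median of all genes, 0.10. *Itgax*, the α subunit CD11c, had a signal of 26933 with vehicle and of 40410 with IR-61. Its scaled values of 4.41 and 4.51 gave a difference of 0.10 (SD 0.09), which is that of the median gene.

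Within the same 2 arrays, the difference of each α subunit was set against that of *Itgb2*. The difference of *Itgal* exceeded that of *Itgb2* by 2.48 on the log2 scale, with an SD expected from the spots of 0.21. For *Itgam* the gap was 1.94 and for *Itgax* 1.39, each with an SD of 0.13. The scaling by a constant per array cancels in these gaps, so settings that differ only in that constant could not change them. Nor could the filters on dim probes. Over 12 settings, the main one included, the gaps lay between 2.37 and 2.57 for *Itgal*, between 1.68 and 1.98 for *Itgam* and between 1.37 and 1.42 for *Itgax*. These settings used the brightest probe or the mean over probes. A dimmer *Itgam* probe, with its difference of 0.12, lay closer to *Itgb2* than these ranges show for *Itgam*. Such a gap shows only that the values of the 2 subunits differed unequally between the arrays.

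Of the subunits of the fibronectin and RGD receptors, *Itga4* was higher and its partner *Itgb1* was lower. *Itga4* had a signal of 5244 with vehicle and of 17630 with IR-61, with scaled values of 2.05 and 3.31, a difference of 1.26 (SD 0.09) and a 2.40-fold higher value. It took rank 140 from the highest difference. Its second probe was dim, at 19.3 and 51.4, with a difference of 0.93 and an SD of 0.46. The lowest signal among probes well above background on the vehicle array was 12.8. *Itgb1*, the β subunit shared by α4 and α5, had a signal of 9716 with vehicle and of 7938 with IR-61, with scaled values of 2.94 and 2.16 and a difference of −0.78 (SD 0.09). The second *Itgb1* probe read 3742 and 3576, a difference of −0.55 (SD 0.09). Both *Itgb1* probes were lower with IR-61 after scaling.

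*Itga5*, the α subunit of the fibronectin receptor, had a signal of 787 with vehicle and of 607 with IR-61 on its only probe. Its scaled values were −0.68 and −1.55, a difference of −0.86 (SD 0.23), close to that of *Itgb1*. *Itgav* had a signal of 1519 with vehicle and of 1686 with IR-61, with scaled values of 0.27 and −0.07 and a difference of −0.34 (SD 0.09). A second *Itgav* probe read 263 and 279, a difference of −0.40 (SD 0.23). The difference of *Itga4* exceeded that of *Itgb1* by 2.04 (SD 0.13), and over the 12 settings, many of which could not change it, by between 1.76 and 2.06. The second probes of *Itga4* and *Itgb1*, at 0.93 and −0.55, lay closer together than this range. For *Itga5* against *Itgb1* the gap of the brightest probes was −0.08 (SD 0.25), within the noise between spots, and for *Itgav* it was 0.44 (SD 0.13).

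**Figure D2:**
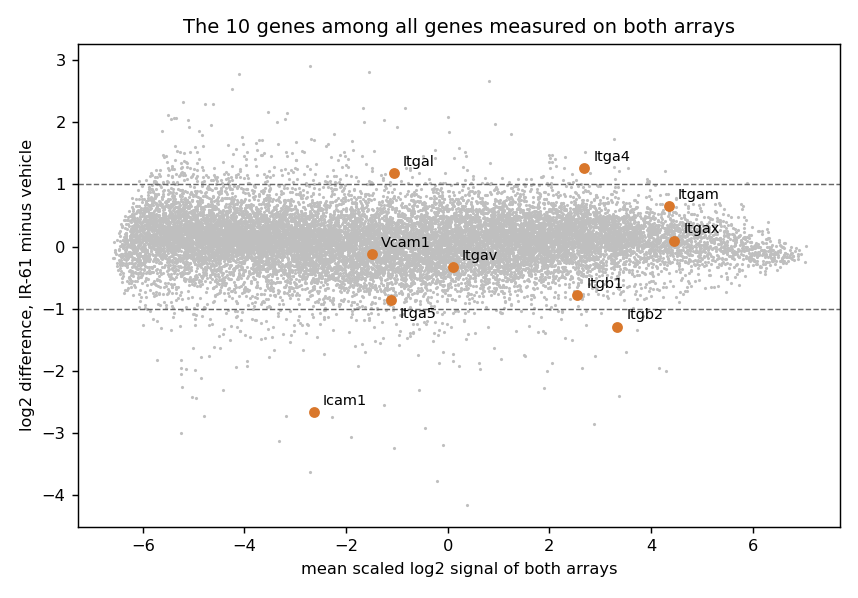
Difference (IR-61 minus vehicle, log2, y axis) against mean scaled log2 signal (x axis) of the 16885 genes measured on both arrays (grey points, brightest probe of each gene), with the 10 genes as labelled orange points and dashed lines at 2-fold. *Icam1* and *Itgb2* lie under the lower line, and *Itgal* and *Itga4* above the upper line.

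The surroundings of each spot on the array were read beside these values. In the square of 15 rows and columns to each side of a member's spot, with between 401 and 750 spots well above background on both arrays, the median difference lay between −0.004 and 0.13. In the deposited log2 table, made by the authors, the differences of the 4 genes past 2-fold were −2.71 for *Icam1*, −1.35 for *Itgb2*, 1.21 for *Itgal* and 1.20 for *Itga4*, with a further probe of *Itgal* at 0.95 and of *Itga4* at 0.75.

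**Figure D3:**
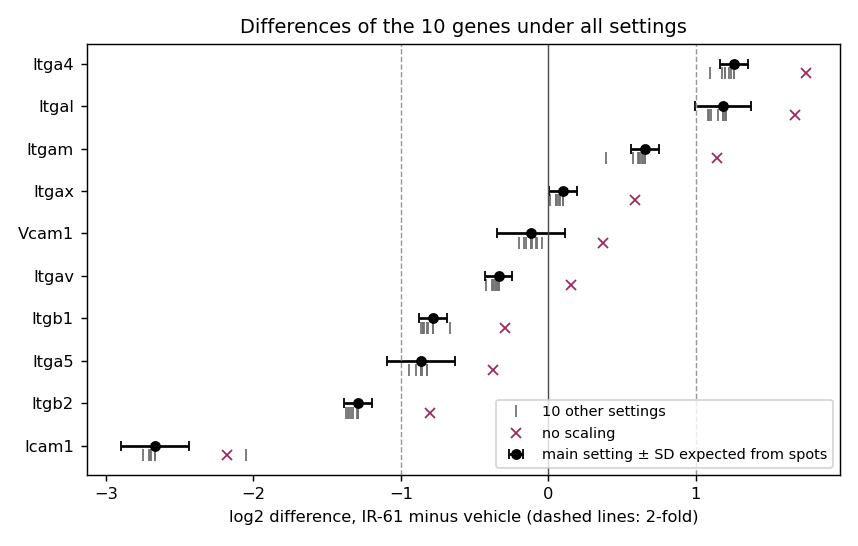
Difference of each of the 10 genes (IR-61 minus vehicle, log2, x axis) in the main setting (black points, bars are the SD expected from noise between spots), without scaling (crosses) and under 10 other settings (ticks), with dashed lines at 2-fold. Leaving out the scaling moves all genes to the right, with the median of all measured genes at 0.59 in place of 0.10, so that *Itgb2* lies at −0.80 and *Itgam* at 1.14 under that setting. Among the ticks, *Icam1* lies at −2.05 with normexp, and *Itgam*, *Itga4* and *Itgb1* lie at 0.39, 1.09 and −0.67 with the mean over probes.

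Other genes of integrin adhesion were described from lists of 79 genes, of which 77 had a named probe and 71 were measured on both arrays. Among these 71, 3 differed by 2-fold or more towards lower values with IR-61 (4.23%) and 2 towards higher values (2.82%), beside the 1.39% and 1.99% of all measured genes, and their median difference was −0.09. None of the 7 measured other α subunits and none of the 5 measured other β subunits passed 2-fold. The highest difference among them was that of *Itga6*, a laminin receptor subunit that pairs with *Itgb1* or *Itgb4*, with a signal of 4551 with vehicle and of 12511 with IR-61 and a difference of 0.97 (SD 0.09). The lowest was that of *Itga2b*, at −0.58 (SD 0.46). Of the β subunits that pair with *Itgav*, *Itgb3* had a difference of −0.07, *Itgb5* of 0.24 and *Itgb6*, a dim probe, of −0.30 (SD 0.46). *Itgb7*, which pairs with *Itga4*, had the lowest difference of its list, −0.38 (SD 0.09). The medians were −7.93e-05 for the α and −0.07 for the β subunits. *Itga8*, *Itgad* and *Itgb8* were above background with IR-61 only, and none of these bounds reached 2-fold. *Itga2* was not well above background on either array.

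Among 13 measured other ligands, *Icam5*, another Icam family member that binds LFA-1, was the only one past 2-fold. Its signal was 542 with vehicle and 2082 with IR-61, a difference of 1.45 (SD 0.19) and a 2.74-fold higher value. *Icam1* and *Icam5*, each read by 1 probe, thus differed in opposite directions. *Icam2* had a difference of 0.46 and *Icam4* of −0.62. The lowest difference was that of *F11r*, a junctional adhesion molecule, at −0.74. The extracellular matrix ligands *Fn1* and *Spp1*, which encode fibronectin and osteopontin, had differences of 0.33 and −0.55. The median of the ligands was −0.17.

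Of the genes that bring integrins into their active form, *Rassf5*, which encodes the Rap1 effector RAPL, was higher by 2.10-fold, from a signal of 4208 to 12418, a difference of 1.07 (SD 0.09). With scaling by the median, quantile normalization and the deposited log2 values it was at 0.99, under 2-fold. *Rassf5* was read by 1 probe. The talin gene *Tln1* and the leukocyte kindlin gene *Fermt3* had differences of 0.03 and −0.37, the latter being the lowest of the 13 measured genes, whose median was 0.06. None of 6 inactivators passed 2-fold. They ranged from −0.46 for *Dok1* to 0.47 for *Krit1*, with a median of 0.02.

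Among 18 signalling and cytoskeletal linker genes, 3 were lower by 2-fold or more, 16.7% of the list, and none was higher. Of all measured genes, 1.39% were lower and 1.99% higher past this limit, and this list too was chosen with earlier results known. *Vcl*, which encodes vinculin, a link between talin and actin, had a signal of 854 with vehicle and of 408 with IR-61, a difference of −1.55 (SD 0.23). A second *Vcl* probe read 368 and 221, a difference of −1.22. *Fgr*, a Src family kinase of myeloid cells that acts downstream of β2 integrins, had a difference of −1.18, from a signal of 2381 to 1474. *Zyx*, which encodes zyxin of focal adhesions, had scaled values of 4.40 and 3.28 and a difference of −1.12. Without scaling, *Fgr* and *Zyx*, read by 1 probe each, were at −0.69 and −0.63, under 2-fold. The Src family kinase gene *Lyn* had a difference of 0.19, and the adaptor gene *Bcar1* one of 0.38, the highest of this list. Its median was −0.14. Of 9 other leukocyte adhesion molecules none passed 2-fold. They ranged from −0.80 for *Alcam* to 0.30 for *Cd81*, with a median of −0.14.

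**Figure D4:**
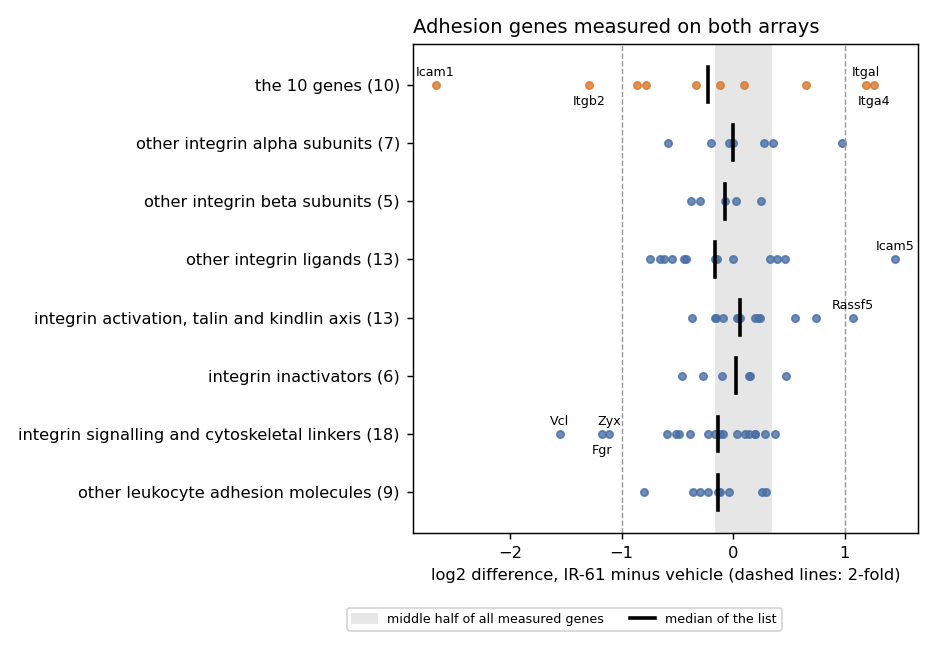
Difference (IR-61 minus vehicle, log2, x axis) of each gene measured on both arrays in the 10 genes and in 7 adhesion lists (y axis, number of measured genes in brackets), with the median of each list (bar), dashed lines at 2-fold and a grey band from −0.15 to 0.34 between the quartiles of all measured genes. Genes past 2-fold are labelled.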

How the data were processed

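RAW264.7 cells treated with vehicle or IR-61 were measured on 1 single-colour Agilent mouse array each, on 1 slide and in 1 scan. The authors deposited the intensity of each spot, background-subtracted and detrended within the array and not scaled between arrays, with other columns of 0/1 flags. The deposited file headers name Agilent Feature Extraction 11.0.1.1 and scanner G2505C, the submitters' processing notes name 11.0.0.1, and the methods name other versions of both. A deposited table of log2 values, whose making is not given in the sources used here, has nearly equal quartiles in both columns (4.59 and 10.66), as quantile normalization gives, and served as an alternative.

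Control spots and outlier spots (124 and 139) were left out, spots of a probe were averaged as log2, and the 75th percentile over 39419 probes was subtracted. A gene table of GRCm38.p6 gave symbols for 27224 of these probes through the RefSeq accession (version ignored). No coordinates were taken for probes, since the array was designed on another assembly. No spot was saturated. For a probe dim on 1 array only, the fold is a bound, computed against the lowest signal well above background there or the probe's own signal, whichever was higher.

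The SD between spots came from probes printed 10 times and well above background, in bins of log2 signal with limits at 6 and 10. It was between 0.063 and 0.070 above 10, between 0.146 and 0.180 from 6 to 10, and between 0.300 and 0.352 under 6. With 1 array per condition, the precision between cultures is unknown. The 2-fold limit is a limit of size and not a test. The members, lists, motifs and settings were chosen with earlier results of these data known. The genes named are the members, the list genes past 2-fold, and the highest and lowest difference per list, with further list genes chosen after their values were seen. *Itga10*, *Itgae* and *Cd68* had no named probe. The steps were run on simulated arrays with planted differences and noise between spots only, which cannot show the spread between cultures.

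The alternatives were other scalings, the deposited log2 values, normexp background correction (limma 3.58.1 in R 4.3.3, offset 50, on the median signal of each spot, with the median background of the array given to 4 spots whose background exceeded their signal, a step chosen after seeing the data), the mean over the probes of a gene, outlier spots kept, other filters on dim probes and a 1.5-fold limit. Figures were drawn with matplotlib 3.10.9, loess used statsmodels 0.14.6, and all else used pandas 2.3.3 and numpy 2.4.6 under Python 3.11.15.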

Additional observations from a re-analysis of the deposited data

How the results depend on the processing

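No paired analysis was possible because vehicle and IR-61 have a single array each. A value counted as unchanged within the SD expected from noise between spots, and a count within 1.5 times. Of 110 values of the 10 genes under 11 alternatives, 96 were unchanged, 14 moved and no gene past 2-fold turned its sign. Many of the 96 could hardly have moved. The brightest probe of each of the 10 genes had a signal of 64 or more on both arrays, so the other filters on dim probes returned the main values. The mean over probes could not change the 4 genes with 1 probe, and keeping outlier spots shifted all 10 genes by the same small amount. Of the 14 values that moved, 10 came from leaving out the scaling, which moved the median of all genes from 0.10 to 0.59. Without it 1 of the 10 genes was lower by 2-fold or more and 3 were higher, and their median was 0.26. Relative to the median of all genes, *Icam1* was at −2.77, *Itgb2* at −1.39, *Itgal* at 1.09 and *Itga4* at 1.16. The remaining 4 were *Icam1* with normexp (−2.05) and *Itga4*, *Itgam* and *Itgb1* with the mean over probes (1.09, 0.39 and −0.67).

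With the 1.5-fold limit 4 of the 10 genes were lower and 3 higher, against 5.69% and 9.79% of all measured genes. In the adhesion lists the 2 higher genes became 1 with scaling by the median, quantile normalization or the deposited log2 values, 5 without scaling and 4 without a filter on dim probes, and the 3 lower became 1 without scaling. Alternatives for these lists and for all genes were added after seeing the data.

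Over all measured genes 235 were lower by 2-fold or more and 336 higher, 41.2% lower. The counts were 72 and 2156 without scaling (3.23% lower), 149 and 124 with normexp (54.6%), and 440 and 921 without a filter on dim probes, and 182 were higher with a signal of 64 or more on both arrays. The share lower was 54.2% with scaling by the median, 52.1% with quantile normalization, 52.2% with loess, 51.4% with the deposited values and 50.3% with a signal of 64 or more. Beyond the settings themselves, the causes were not tested.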
